A study of Mus musculus with 14 samples.

Results

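The genes described here encode the proteins of the cytoplasmic ribosome. They were chosen by name (symbols of the Rpl and Rps series with a number, Rplp0, Rplp1, Rplp2 and Rpsa) and by a sum of more than 500 counts over the 6 libraries of a transcription block. Of 52459 genes counted, 89 carried such a name and 85 passed the minimum. They comprise 49 genes of the large subunit, 32 of the small subunit and 4 annotated pseudogenes (Rps4l, Rps3a2, Rps3a3 and Rpl6l). Just inside the minimum were Rpl29 with 777 counts in all, Rpl39l with 1576, Rpl34 with 3218 and Rpl10l with 5157. Outside it were Rpl3l with 327 counts, Rpl24 with 323, Rpl36al with 158 and Rps12l1 with 0. Since summed counts chose the members, their high levels are a description and not a result.

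The cells were mouse embryonic stem cells (mESCs) of the E14Tg2a line, grown on gelatin in serum with LIF. WT cells were compared with METTL14 R255K cells, a knock-in line made with CRISPR-Cas9 and grown from isolated colonies, in which lysine replaces an arginine of METTL14. For the transcription block both genotypes received 5 µg/ml actinomycin D, which stops RNA synthesis, and mRNA libraries were made after 0, 4 and 8 h, with 1 library per genotype and time. For MeRIP-seq, in which an antibody pulls down RNA fragments with N6-methyladenosine (m6A), each genotype had 2 pull-down and 2 input libraries of cells without a stated treatment, deposited as 1 list of peaks per genotype. With 1 library per time and 1 list per genotype there is no replicate error, so no p-value or standard deviation is given. Intervals of single genes and of library shares cover counting error only. Those of medians and of peak shares are taken over genes or peaks. None covers differences between cultures or libraries.

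Each ribosome needs 1 copy of nearly every ribosomal protein, so cells make these proteins in matched amounts. Their mRNAs are short, abundant and long-lived, and most begin with a cytosine followed by a run of pyrimidines, the 5′ terminal oligopyrimidine (TOP) tract, through which growth signals control their translation. METTL14 is the partner of METTL3 in the enzyme that writes m6A, most often in the sequence GGAC, and m6A near the end of an mRNA can shorten its life.

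The tract is shown because these transcripts are known for it. RefSeq start sites (GRCm38.p6) were found for 61 of the 85 genes, with 72 starts in all. At 13 of these starts (18.1%) the first base was a C followed by at least 4 pyrimidines, against 2.51% of all 32851 listed starts. A run of at least 8 pyrimidines lay between 15 bases before and 25 bases after the start in 43.1% of the members' starts and 15.3% of all starts. Annotated starts can be some bases off, and a start without a tract in these letters says nothing of the start the cell uses. The following windows hold 10 bases before the start and 18 after it, on the strand of the gene. Capitals mark the run of pyrimidines across the annotated start. Windows are shown as examples for 7 of the 13 genes with a tract, and for Rpl39l, which has none.
Rpl28, chr7:4792955-4792982 (+): tctcgtgTCTCTCTTTCCgtctccggcc
Rpl35, chr2:39005114-39005141 (-): ccgCCCTTTCCTCTTTCTCTCgaaccag
Rpl38, chr11:114668570-114668597 (+): aagcctcgTTCTTTCCCCgttctcttcg
Rplp2, chr7:141447641-141447668 (+): cagcgTCTTCCTTTCgccgccggacgcc
Rps6, chr4:86857350-86857377 (-): gaagtcgggCCTCTTTTTCgtgacgcct
Rps18, chr17:33955648-33955675 (-): cacttccgCTCTCTCTTCCacaggaggc
Rps27, chr3:90213631-90213658 (-): cgctttcgCTCCTTTCCggcggtgacga
Rpl39l, chr16:10170218-10170245 (+): aggcctttccggatttccggtggtcgcc
The runs in capitals are between 9 and 18 bases long, the longest in Rpl35, and include bases before the annotated start. Counted from the start, the tract is between 5 bases (Rplp2) and 11 bases (Rpl35) long.

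The libraries held between 13812160 and 18813640 counts, of which mitochondrial genes took 0.453 to 0.754%. Mettl14 counts at 0, 4 and 8 h were 681, 376 and 232 in WT, with 299, 280 and 209 for R255K, which does not check a substitution of 1 amino acid. The stem cell markers Pou5f1, Sox2, Nanog, Esrrb, Zfp42, Dppa5a, Tdgf1, Sall4, Lin28a and Utf1 summed to between 4026 and 6220 CPM (counts scaled to the same library total). The fibroblast list (Col1a1, Col1a2, Col3a1, Thy1, Postn) summed to 5.34 to 7.24 CPM in WT and 27.2 to 34.3 CPM in R255K libraries. Col1a1 had 6 to 9 counts in WT and 150 to 226 in R255K libraries. Postn had 0 in every WT library and 0, 2 and 1 in the R255K libraries of 0, 4 and 8 h. The part of this marker difference in the results was not tested.

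In untreated WT cells the 85 transcripts together took 4.40% of all counts (95% interval 4.39 to 4.41). Per length they spanned 286-fold, from 5.05 to 1444 FPKM (CPM divided by the exon length in the table in kilobases), with a median of 262. Over the length of the main mature transcript instead, they ran from 7.34 to 1687 FPKM with a median of 505.5, a 230-fold span. The median of the 10191 genes over the same minimum was 10.5 FPKM. Over the exon length, Rplp1, an acidic protein of the stalk that recruits elongation factors, was highest with 1444 FPKM, followed by Rpl8 with 1431 and Rpl4 with 907. The order depends on the length used: over the mature transcript Rpl13 was highest with 1687 FPKM, before Rpl8 with 1449 and Rplp1 with 1444. The mRNAs of the stalk proteins differed among themselves. Over the exon length Rplp0, their anchor on the ribosome, and Rplp2 had 514 and 168 FPKM beside 1444 of Rplp1. Over the mature transcript they had 628 and 361 FPKM beside 1444 of Rplp1. By CPM, which is not per length, Rplp0 was highest with 852, before Rplp1 with 721 and Rplp2 with 348. Lowest over the exon length were Rpl29 with 5.05 FPKM, Rpl39l with 7.11 and Rpl34 with 11.7, and over the mature transcript Rpl39l with 7.34, Rpl29 with 7.75 and Rpl10l with 26.7.

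**Figure D1:**
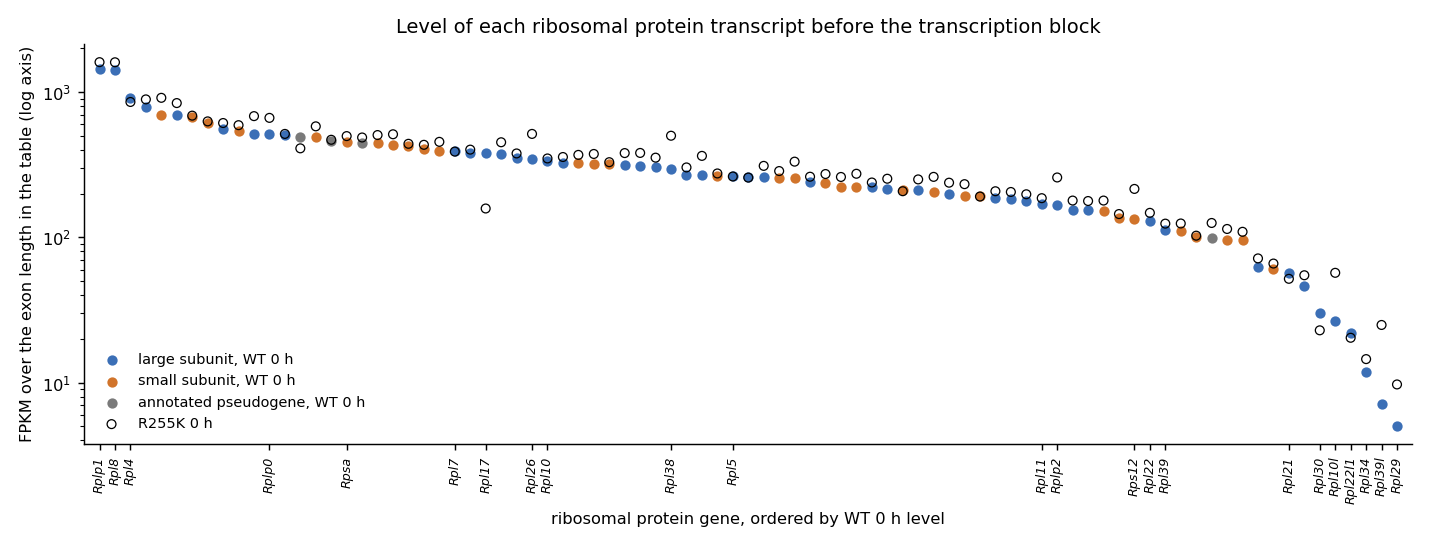
Level of each of the 85 genes at 0 h in FPKM on a log axis, with filled points for WT by subunit and open circles for R255K (1 library each) and names under some of the genes. The order follows the WT level, from Rplp1 at 1444 FPKM to Rpl29 at 5.05; most open circles lie slightly above the filled point, and Rpl17 lies far below it.

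Reads of these genes are hard to place. With BLAST of the coding sequence (for the 4 pseudogenes, the transcript), 79 of the 85 genes had at least 1 other copy in the genome at 95% identity over 80% of that length, and 18 had 10 or more. The counts are from reads kept as unique, so genes with many copies can be undercounted. Levels of Rpl21 (55 copies), Rpl7a (30), Rpl29 (28), Rps2 (25), Rps12 (23) and Rpl17 (22) are uncertain. The 6 genes without a copy had a median log2 ratio of 0.70 for 8 h over 0 h in WT, close to the 0.69 of the 18 genes with 10 or more copies.

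The first comparison asks how the genotypes differ before the block. The members took 4.89% of the R255K counts at 0 h (4.88 to 4.90), 1.11 times the WT share. The median log2 ratio of R255K over WT was 0.18 (95% order-statistic interval 0.13 to 0.22) beside 0.05 for all genes. In R255K cells 6 members, Rpl39l and Rpl29 among them, were over 1.5-fold higher and 1 was over 1.5-fold lower. Of all genes 18.3% were that much higher and 18.7% that much lower. The middle 50% of the members spanned 0.172 on the log2 scale and the middle 50% of all genes 0.856. The large subunit had a median of 0.18, the small subunit 0.18 and the 4 pseudogenes 0.07.

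At the ends of this range stood germ-line paralogs, genes with many copies and some genes with few copies. Rpl39l, the autosomal copy of X-linked Rpl39 known from testis, was read 103, 110 and 102 times in the WT libraries of 0, 4 and 8 h, and 324, 448 and 489 times in those of R255K. Its log2 ratio at 0 h was 1.80 (1.49 to 2.14), and all R255K values lay above all WT values, though the times are not replicates. Rpl10l, the intronless copy of Rpl10 that replaces it in male meiosis, was read 476, 479 and 507 times in WT, and 912, 1311 and 1472 times in R255K libraries, a log2 ratio of 1.09 (0.93 to 1.26). Rpl29 came next, at 0.94 on 99 and 171 counts. After it came Rpl38 at 0.76 (3 copies), Rps12 at 0.69 (23 copies) and Rplp2 at 0.62 (1 copy). Rpl39l and Rpl29 passed the count minimum only with their R255K counts, so the choice of members favoured higher R255K values for both. The partner genes on the X chromosome differed little, with a log2 ratio of 0.14 for Rpl39 (178 against 161 CPM) and 0.05 for Rpl10 (717 against 693 CPM). Among the other paralog pairs, Rpl22 and Rpl22l1 had 0.18 and -0.11, Rps27 and Rps27l 0.23 and 0.31, and Rpl7 and Rpl7l1 -0.01 and 0.21. Rpl36al and Rpl3l, the partners of Rpl36a and Rpl3, were under the minimum.

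Rpl17, a protein at the exit of the peptide tunnel, was the only member over 1.5-fold lower in R255K cells at 0 h. It had 294, 192 and 301 CPM in WT and 122, 142 and 276 CPM in R255K libraries at 0, 4 and 8 h. The log2 ratio was -1.27 (-1.34 to -1.19) at 0 h and -0.12 at 8 h, so the gap was small in the last pair of libraries. The next lowest were Rpl30 at -0.39 and the pseudogene Rps3a2 at -0.26. Rpl5 and Rpl11, which together with 5S rRNA hold back Mdm2 when ribosome assembly fails, had -0.01 and 0.12, and Rpsa, the protein also known as laminin receptor, had 0.12.

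Chromosome 11 carries 7 members. Their log2 ratios at 0 h were 0.76 for Rpl38, 0.45 for Rpl27, 0.38 for Rps27a, 0.25 for Rpl23a, 0.17 for Rpl19 and -0.02 for Rpl23, and Rpl26 had 744 CPM in R255K against 499.6 CPM in WT. Their median was 0.38 and that of the 78 members elsewhere 0.17. All 851 genes of chromosome 11 over the minimum had a median of 0.57, beside 0.05 for the genome. Of the 7, Rpl38 and Rpl26 lay above that chromosome median. The copy number of chromosome 11 was not tested.

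Actinomycin D raises the question of what is left once synthesis stops. CPM is a share of the remaining mRNA, so a transcript that outlasts the others gains share while its amount falls, and the 2 cannot be told apart here. In WT cells the members' share was 4.40% at 0 h, 6.05% at 4 h and 7.31% at 8 h, a 1.66-fold higher share at the end. The median member had 461, 623 and 724 CPM. Steady gain from 0 to 4 to 8 h was seen in 81 of 85 members, against 28.3% of all genes. At 8 h 68 members were over 1.5-fold higher than at 0 h and 1 was over 1.5-fold lower, where 18.5% and 48.9% of all genes were. The median log2 ratio was 0.73 (0.68 to 0.80) for the members and -0.53 for all genes, a distance of 1.26. A factor per library cannot alter this distance, but it was 0.67 after the correction for exon length and 0.66 among genes over 5000 counts.

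The small subunit had a WT median of 0.77 and the large subunit 0.70, with wide overlap. Rps12, a small-subunit protein that takes part in cell competition in flies, was highest at 1.29 with 270, 541 and 662 CPM. It has 23 near-identical copies, so its values are uncertain. Rps29 followed at 1.03 with 141, 232 and 289 CPM, and Rpl38, needed for translation of Hox mRNAs, at 1.02 with 161, 262 and 325 CPM. Rpl34 went the other way, with 541, 471 and 270 counts and a log2 ratio of -0.67 (-0.88 to -0.45). Rpl29 (0.01) and Rpl17 (0.03) ended where they began.

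In R255K cells the members gained less share. It was 4.89%, 5.26% and 5.68% at 0, 4 and 8 h, 1.16-fold higher at the end, and the median member had 535, 546 and 584 CPM. Steady gain was seen in 57 of 85 members and in 25.1% of all genes. Only 4 members were over 1.5-fold higher at 8 h and 0 were over 1.5-fold lower, beside 7.22% and 28.8% of all genes. The median log2 ratio was 0.20 (0.17 to 0.22) for the members and -0.06 for all genes. Among genes over 5000 counts the values were 0.20 and 0.13, so the distance of 0.26 was 0.065 there. Highest were Rpl17 at 1.17, Rpl21 at 0.82 and Rpl22l1 at 0.82, and lowest were Rps27a at -0.27, Rpl29 at -0.18 and Rpl7a at -0.12.

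**Figure D2:**
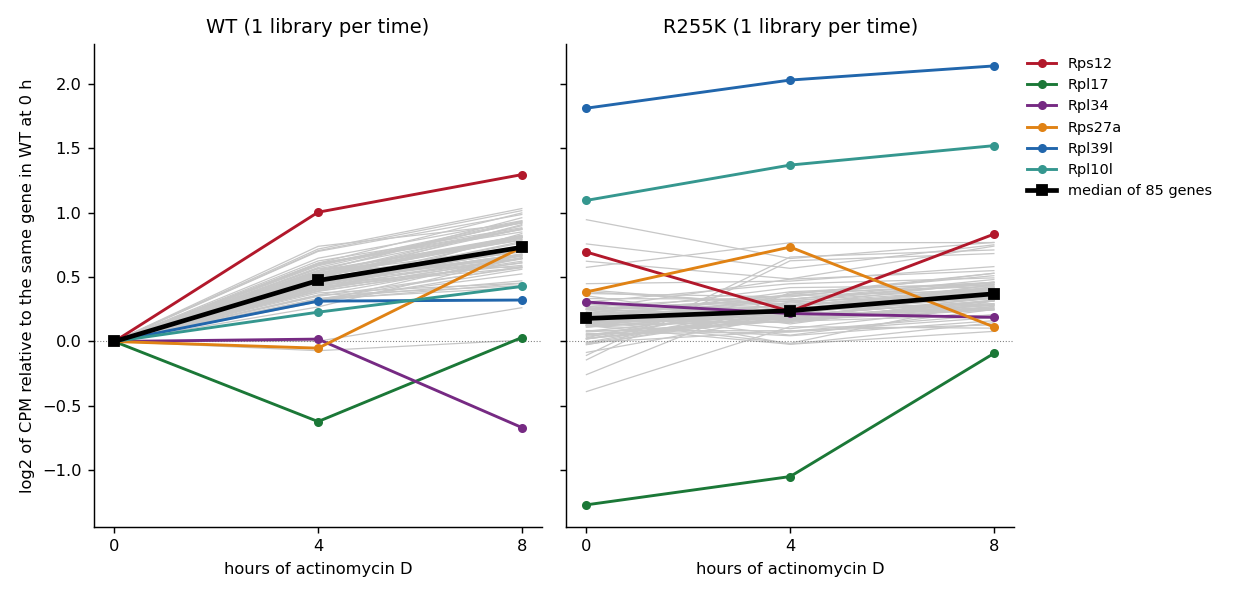
Log2 CPM of each of the 85 genes relative to its own WT value at 0 h, against hours of actinomycin D, with WT on the left and R255K on the right (1 library per point). The black line is the median of the 85 genes, which reaches 0.73 at 8 h in WT; grey lines are single genes, and coloured lines are 6 genes that leave the bundle.

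Relative to WT, the R255K share of the members was 1.11-fold at 0 h, 0.868-fold at 4 h and 0.777-fold at 8 h. At 8 h the median log2 ratio of R255K over WT was -0.36 (-0.41 to -0.32) for the members and 0.50 for all genes. There 4 members were over 1.5-fold higher in R255K cells (Rpl39l, Rpl10l, Rpl34 and Rpl29) and 8 were over 1.5-fold lower (Rps27a, Rps25, Rps27, Rps28, Rps29, Rps21, Rpl7a and Rpl39). Rpl39l and Rpl29 had passed the count minimum only with their R255K counts. Of all genes 47.1% were higher and 9.37% lower. With edgeR TMM factors 2 members were higher and 69 lower, beside 33.9% and 24.5% of all genes, and with DESeq2 size factors 1 was higher and 76 were lower, beside 31.1% and 28.4%.

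The difference between the 8 h changes, R255K minus WT, had a median of -0.52 (-0.58 to -0.45) for the members and 0.43 for all genes. By this measure 30 members were over 1.5-fold lower and 1, Rpl17, was over 1.5-fold higher. Of all genes 7.1% were lower and 44.9% higher. The value of 83 of 85 members lay below the median of all genes, and all 32 small-subunit members lay below 0. These comparisons share their 0 h and 8 h libraries, so they are not independent of each other. Scaling moved the median of all genes by more than 0.1: for WT at 8 h it was -0.53 with summed counts, -0.01 with TMM and 0.09 with DESeq2 factors, and members are best read against it.

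Most negative were Rps12 (23 near-identical copies) at -1.15, Rps29 at -1.03 and Rpl38 at -1.02, followed by Rps27a. Rps12 had 437, 318 and 481 CPM in R255K cells, so it began above WT and ended below the WT 8 h value of 662. Rps27a, which encodes ubiquitin fused to a ribosomal protein, had 502, 484 and 832 CPM in WT and 655, 834 and 543 CPM in R255K cells. The last WT library and the middle R255K library thus held its highest values. At the other end were Rpl17 at 1.14, Rpl34 at 0.55 and Rps3a2 at 0.03. Rpl34 had 600, 671 and 665 counts in R255K libraries, with no library as low as the 270 counts of WT at 8 h. The stalk genes Rplp0, Rplp1 and Rplp2 had -0.84, -0.57 and -0.69, Rpsa -0.68, Rpl5 -0.48 and Rpl11 -0.43. Rpl39l and Rpl10l had 0.01 and -0.00, with 95% counting half-widths of 0.444 and 0.216.

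The paralog pairs differed in the time course. Rps27 had 159, 246 and 294 CPM in WT and 187, 165 and 189 CPM in R255K cells, a difference of the 8 h changes of -0.86. Its p53-responsive partner Rps27l had 181, 264 and 315 CPM in WT and 224, 247 and 254 CPM in R255K cells, a difference of -0.61. Rpl22 had 379, 555 and 724 CPM in WT and 429, 489 and 547 CPM in R255K cells, a difference of -0.58, while its partner Rpl22l1 had 43.6, 57.1 and 77.9 CPM in WT and 40.5, 68.7 and 71.3 CPM in R255K cells, a difference of -0.02. X-linked Rpl39 had 161, 262 and 319 CPM in WT and 178, 183 and 209 CPM in R255K cells, a difference of -0.75 beside the 0.01 of Rpl39l. Rpl7 and Rpl7l1 had differences of -0.39 and -0.42.

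**Figure D3:**
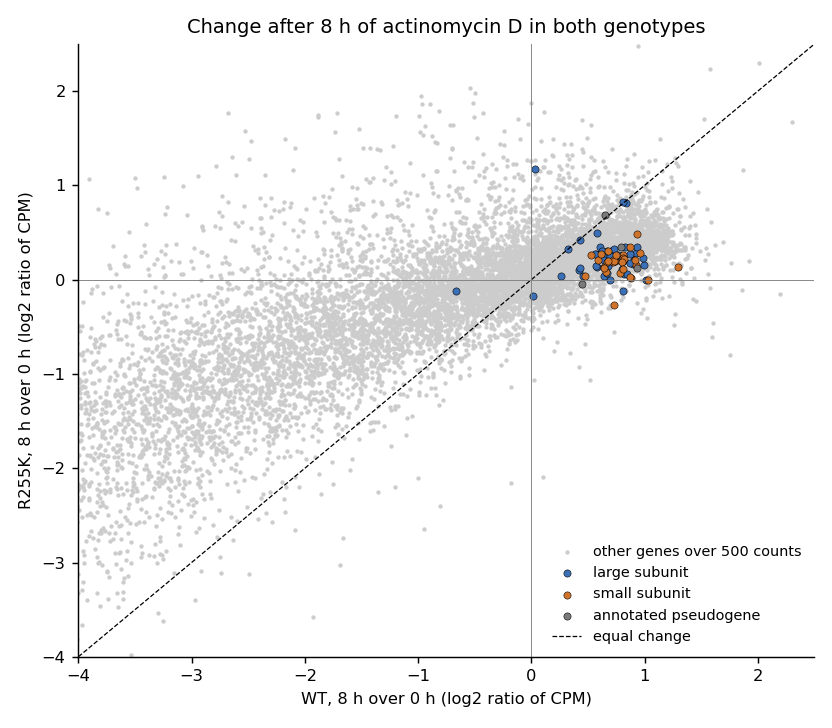
Log2 ratio of 8 h over 0 h in R255K cells against that in WT cells for the 85 genes (coloured by subunit) and for 10106 other genes over 500 counts (grey), of which 628 lie outside the axes. The members form a tight group to the right of the dashed line of equal change, around 0.73 in WT and 0.20 in R255K cells, while most grey points lie to its left.

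Transcript length moved with these values. The 20 members with a mature transcript under 600 nt had a median difference of the 8 h changes of -0.70, the 37 from 600 to under 1000 nt -0.48 and the 28 of 1000 nt or more -0.48. Among other protein-coding genes the medians were -0.62 for 76 short ones, -0.40 for 405 of the middle class and 0.54 for 9054 long ones. Long members thus lay near the short members, far from the long genes at large. After a correction for the trend with exon length the members' median was -0.11 and that of all genes 0.34. The ratio of R255K over WT at 0 h was 0.01 after the same correction, beside 0.07 for all genes, so the small excess of the members at 0 h was not seen with it.

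Other housekeeping complexes were measured beside the members. For 8 h over 0 h in WT cells, the median was 0.74 for 36 proteasome subunits, 0.89 for 82 nuclear genes of the respiratory chain and 0.62 for 16 translation factors and other TOP transcripts. In R255K cells these lists had 0.24, 0.31 and 0.32, and the difference of the changes was -0.43, -0.55 and -0.38. Mitochondrial ribosomal proteins (77 genes) had -0.08 in WT, 0.02 in R255K cells and a difference of 0.01, and their ratio at 0 h was 0.51. The medians of the members were thus nearer to those of the proteasome and the respiratory chain than to those of the mitochondrial ribosome. Past 1.5-fold lower in the difference were 10 of 36 proteasome genes, 34 of 82 respiratory chain genes, 1 of 16 translation factors and 2 of 77 mitochondrial ribosomal proteins. The 15 members that are mutated in Diamond-Blackfan anaemia had 0.72 and 0.19.

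**Figure D4:**
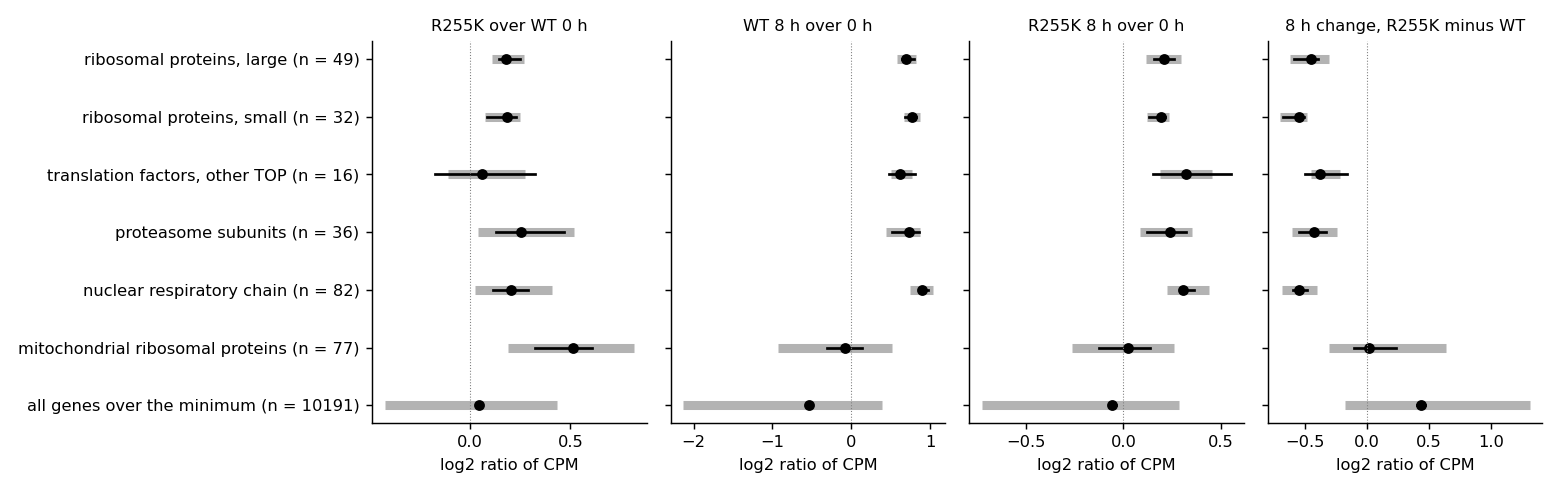
Median log2 ratio of gene groups and of all 10191 genes over the minimum in 4 comparisons (black point, with its 95% order-statistic interval as a thin line and the middle 50% of genes as a grey bar). At 0 h the bars of both ribosomal subunits are narrower than those of the other groups, and for 8 h over 0 h in WT the mitochondrial ribosomal proteins lie at -0.08, left of both subunits.

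The peak lists show where m6A was called on these transcripts. A peak was counted for a gene where it overlapped an exon by at least 1 bp. In WT cells 14 of 85 members carried a peak (16.5%, 95% Wilson interval 10.1 to 25.8), against 60.5% of all genes over the minimum. In R255K cells 30 members did (35.3%, 26.0 to 45.9), against 46.8% of all genes. The whole R255K list is shorter, with 9437 peaks against 17693, but it held more peaks on these genes, 34 against 14. A peak in WT only was found on 2 members (17.6% of all genes) and a peak in R255K only on 18 members (3.91% of all genes). Of the other genes in the top 10th by WT level, 44.6% carried a WT peak and 14.3% a peak in R255K only. The respiratory chain genes were again close to the members, with a WT peak on 11 of 82 and a peak in R255K only on 18. The depth behind the lists is unknown, and its part in these counts was not tested.

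Both lists held a peak on 12 members: Rpl4, Rpl7a, Rpl7l1, Rpl10l, Rpl13, Rpl13a, Rpl28, Rpl41, Rps4l, Rps6, Rps13 and Rps24. The 18 members with a peak in R255K only included Rpl8, Rpl14, Rpl18, Rpl23a, Rpl27, Rpl34, Rpl35, Rpl36, Rpl38, Rplp2, Rps2, Rps15, Rps18, Rps19, Rps25 and Rps29. Of the 14 WT peaks 2 had no overlapping R255K peak, on Rpl36a and Rps28, where 43.7% of all WT peaks on genes over the minimum had none. The Rps28 peak (chr17:33818981-33819272) lay 5459 bp past the start of the gene, outside its main transcript and on an exon shared with Kank3. Of the 34 R255K peaks 22 had no overlapping WT peak, against 13.7% of all. Among the 12 WT peaks with an R255K partner, 9 had the higher fold enrichment in R255K cells, against 29.9% of all such peaks.

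Peaks on the members had low enrichment. Fold enrichment over the local background had a median of 2.58 in WT (1.64 to 5.46) and 2.69 in R255K cells (1.45 to 8.35), where the medians over all genes were 5.76 and 5.10. In the WT list the strongest was on Rpl7l1 (chr17:46773970-46774406, in the 3′UTR), at 5.46 in WT and 2.93 in R255K cells. In the R255K list it was on Rps24 (chr14:24490768-24491072), at 8.35, where the WT peak had 2.79. Next came Rplp2 at 4.95, Rpl38 at 4.30, Rps15 at 4.22 and Rpl28 at 4.11, of which Rpl28 also had a WT peak at 3.21. Over the other pairs the values in WT and R255K were 1.64 and 1.61 for Rpl4, 2.38 and 3.73 for Rpl7a, and 3.87 and 2.45 for Rpl10l. They were 2.11 and 2.69 for Rpl41, 2.39 and 3.20 for Rps13, and 1.68 and 2.34 for Rpl13. For Rpl13a they were 2.46 and 2.69, and for Rps4l 2.71 and 3.885. The 22 R255K peaks without a WT partner ran from 1.45 to 4.95 with a median of 2.65. Rps6, the ribosomal protein that S6 kinase phosphorylates, had 2.43 in WT and 2.64 in R255K cells with the summit at the same base. The median −log10 q of the members was 16.8 in WT and 16.4 in R255K cells, where the medians over all genes were 31.4 and 19.4.

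Many summits lay near the start. Within 500 bp of the transcript start, measured in the genome, were 15 of 34 R255K summits (44.1%, 28.9 to 60.5), against 18.2% of all R255K peaks on genes over the minimum. In WT cells it was 4 of 14, against 8.7% of all. Of the 22 R255K peaks without a WT partner 12 were within this distance. A summit in an intron of the main transcript was seen for 13 of the 34 R255K peaks (38.2%, 23.9 to 55.0) and 5 of the 14 WT peaks, while all genes had 7.3% and 5.71%. Such peaks overlap an exon at their edge or an exon of another transcript. The WT and R255K peaks on Rpl13 also covered the small nucleolar RNA gene Snord68, one of the guides of rRNA modification hosted in introns of ribosomal protein genes.

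**Figure D5:**
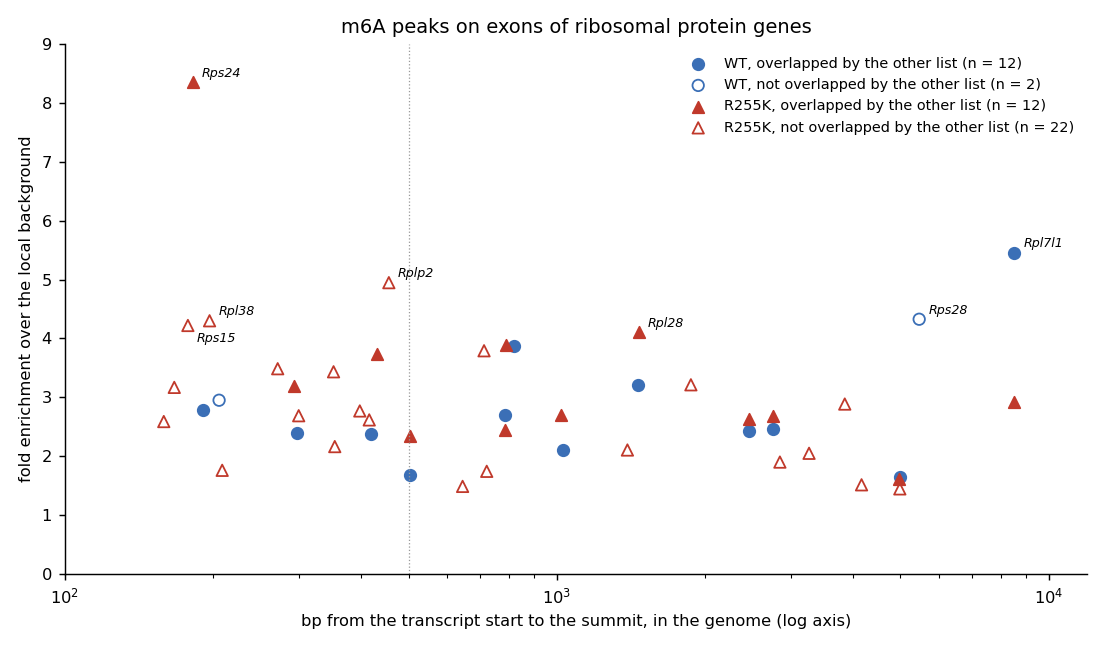
Fold enrichment of each m6A peak on the exons of the 85 genes against the distance of its summit from the transcript start (log axis), for WT (circles, 14 peaks) and R255K (triangles, 34 peaks). Filled symbols are overlapped by a peak of the other list; of the open triangles, the 22 R255K peaks without a WT partner, 12 lie left of the dotted line at 500 bp.

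GGAC was looked for in the 50 bases on either side of each summit, in the orientation of the transcript. It was found at 6 of 14 WT peaks (42.9%, 21.4 to 67.4) and 16 of 34 R255K peaks (47.1%, 31.5 to 63.3) of the members. Windows of the same length on all genes over the minimum held it in 61.4% of WT and 64.7% of R255K peaks. The following windows, read from the mm10 genome on the strand of the gene, show peaks with and without it, with each GGAC in capitals. In Rps24, whose window has none, the capital marks the summit.
Rps6, both lists, coding, chr4:86854912-86854972 (-): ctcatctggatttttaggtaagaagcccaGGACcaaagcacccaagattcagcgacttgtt
Rpl13a, both lists, coding, chr7:45125945-45125973 (-): cctcaagaccaacGGACtcctggtgtgaa
Rps18, R255K only, summit coding and motifs intronic, chr17:33952361-33952421 (-): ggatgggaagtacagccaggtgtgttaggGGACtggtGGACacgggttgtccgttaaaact
Rps19, R255K only, intron, chr7:24884714-24884774 (+): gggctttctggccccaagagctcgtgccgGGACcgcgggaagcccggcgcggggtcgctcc
Rpl38, R255K only, across an exon end, chr11:114668811-114668839 (+): catggtgagtgcgGGACgagGGACcgggg
Rps24, both lists, intron, chr14:24490870-24490930 (+): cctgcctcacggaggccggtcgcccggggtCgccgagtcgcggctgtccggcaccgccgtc
Some windows cross splice sites: of 61 bases 44 are exonic in Rps6, 19 in Rps18 and 0 in Rps19 and Rps24. Of 29 bases 29 are exonic in Rpl13a and 4 in Rpl38. In Rps6 the motif lies 4 bases from the summit, in Rps18 26 bases and in Rps19 25 bases. In Rpl13a it lies 45 bases from the WT summit and in Rpl38 19 bases from the R255K summit. The windows of Rpl13a and Rpl38 do not hold the summit.

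The time course was set beside the peaks. The median difference of the 8 h changes was -0.42 for the 12 members with a peak in both lists, -0.54 for the 18 with one in R255K only and -0.52 for the 53 with none. For R255K over WT at 0 h the medians were 0.16, 0.25 and 0.16. The middle 50% of all members ran from -0.68 to -0.38 for the first measure and from 0.08 to 0.25 for the second. The classes are parts of the members, so medians within that range cannot show that the classes are alike. The median of 0.25 for a peak in R255K only lay at the upper end of the range at 0 h. Rps28 and Rpl36a, with a peak in WT only, had a median of -0.82 for the first measure.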

How the data were processed

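For the mRNA libraries the authors discarded reads matching rRNA (Bowtie2 2.2.6), aligned the rest to mm10 (HISAT2) and kept unique reads (Picard 2.16.0, SAMtools 0.1.09), as their methods and the submitters' processing notes say. The deposited table holds whole-number counts per gene with exon lengths. The counting tool and annotation are not given in the sources used here. Peaks were called by the authors with MACS2 on pull-down over input, and the deposited lists give fold enrichment and −log10 q for each peak, 1 list per genotype. How the 2 library pairs were combined is not given in the sources used here.

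Counts were divided by each library's summed counts (CPM), and by exon length for FPKM. Log2 ratios used a pseudocount of 0.5 counts. Genes needed more than 500 counts over the 6 libraries, and a 1.5-fold difference was the size reported. Medians have 95% order-statistic intervals, shares have exact or Wilson binomial intervals, and single genes have intervals for counting error only. Peaks were joined by an overlap of at least 1 bp to the exons given with the deposited counts. GENCODE vM21 gave the main transcript of each gene and the small nucleolar RNA genes. Genes named with values were paralog pairs, the stalk genes, Rpsa, Rpl5 and Rpl11, the 3 highest and 3 lowest members of each comparison, members with a peak, those on chromosome 11 and those beside the minimum. The members and lists were chosen with earlier results of these data known.

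Alternatives used edgeR 4.0.16 TMM factors and DESeq2 1.42.0 size factors (R 4.3.3), lowess corrections (span 0.3, statsmodels 0.14.6), TPM, other times and stricter peak rules. The ratio script was tested on simulated data. Python 3.11.15, pandas 2.3.3, pysam 0.24.0 and BLAST 2.17.0 were used. Library totals were 13812160 to 18813640 counts. Some items are not reported here.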

Additional observations from a re-analysis of the deposited data

Results flagged for a closer look

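Rpl7a, a large-subunit protein whose gene hosts small nucleolar RNAs, stood out because it had a higher share after actinomycin D in WT and a lower one in R255K cells at both times, each past counting error. Rps4l, Rps29, Rpl38 and Rpl41 had the same signs, with R255K ratios at 8 h of -0.04, -0.00, -0.01 and -0.00 that were within counting error. Rpl7a had 563, 797 and 988 CPM in WT and 677, 555 and 622 CPM in R255K cells at 0, 4 and 8 h. The log2 ratios to 0 h were 0.50 and 0.81 in WT and -0.29 and -0.12 in R255K cells, a difference of -0.94 at 8 h. The difference was not tested, since each value is 1 library. With DESeq2 factors the R255K ratio at 8 h was 0.03, so its sign depends on the scaling, while the difference was -1.40. Rpl7a has 30 near-identical copies in the genome.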

How the results depend on the processing

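No paired analysis was possible because each genotype and time has 1 library and no test was made. Of 61 values recomputed, 36 stayed within their interval or within 1.5 times the count, 25 moved and 0 reversed in sign. Less the median of all genes, however, R255K over WT at 0 h turned from 0.13 to -0.05 after exon length correction. For R255K over WT at 0 h (0.18) the median was 0.22 with TMM, 0.12 with DESeq2 factors, 0.12 after GC correction, 0.013 after exon length correction and 0.23 for the 6 genes without a copy. For 8 h over 0 h in WT (0.73) it was 1.26 with TMM, 1.35 with DESeq2 factors, 0.95 after GC and 0.35 after length correction, 0.47 for 4 h over 0 h and 0.26 for 8 h over 4 h. In R255K cells (0.20) it was 0.26, 0.35, 0.31, 0.14, 0.082 and 0.12 in the same order. The difference of the changes (-0.52) was -0.99 with TMM, -0.98 with DESeq2 factors, -0.11 after length correction, -0.36 at 4 h and -0.14 for 8 h over 4 h. Less the median of all genes, the 4 measures ran from -0.05 to 0.18, 0.66 to 1.27, 0.07 to 0.46 and -0.96 to -0.45 over 10 alternatives. Leaving out the 4 pseudogenes, chosen after seeing the data, moved none. The members past 1.5-fold in WT at 8 h were 68 higher and 1 lower, 82 and 0 with TMM, and 84 and 0 with DESeq2 factors, where the share of all genes that was higher went from 18.5% to 35.6% and 38.1%. For the difference they were 1 and 30, and 1 and 77 with either, where the share of all genes that was lower went from 7.1% to 28.1% and 27.8%. The median level was 841 as TPM. With a fold enrichment of at least 4, 2 members had a WT and 5 an R255K peak. The cause of these shifts was not tested. Depth limits genes under the minimum, and the depth behind the peaks is unknown.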

Other observations

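Annotated pseudogenes named after ribosomal proteins took a share of counts that followed the genes. It was 0.209%, 0.303% and 0.371% in WT and 0.238%, 0.281% and 0.295% in R255K libraries at 0, 4 and 8 h. Although reads were kept as unique, reads of a gene can be misplaced on a near-identical pseudogene, and how often was not tested.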
